A study of Homo sapiens with 7 samples.

Results

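CTCF peaks at the 3′ ends of protein-coding genes were examined in K562 cells, an established human leukaemia cell line. A peak belonged to this set when its centre lay within 1 kb of the 3′ end of a protein-coding gene, outside coding sequence and more than 1 kb from every protein-coding gene start. The rule used only position. It gave 973 of the 33069 peaks of control cells on chromosomes 1 to 22 and X (2.94%, Wilson 95% confidence interval 2.77–3.13%) and 1076 of the 32893 peaks of PDS-treated cells (3.27%, 3.08–3.47%). Merged over both lists these were 1261 loci, of which 764 held a peak of the set in both lists, 195 in the control list only and 302 in the PDS list only. Such a locus can still be overlapped by a peak of the other list that did not meet the rule. Of all peaks, 22.0% in the control and 21.4% in the PDS list had no overlapping peak in the other list.

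The series comprised 7 chromatin immunoprecipitation sequencing (ChIP-seq) samples. Non-treated cells gave 2 CTCF samples and 1 sample of nonspecific IgG, and cells treated with 10 μM pyridostatin (PDS), a small molecule that binds G-quadruplexes (G4s), for 24 h gave 2 CTCF and 2 IgG samples. All cells were grown in medium with low serum. The authors called 1 peak list per condition on both replicates jointly, so the lists hold no value per replicate and no read counts, the depth is unknown, no SD can be given, and every interval and test below covers the counting of peaks only.

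CTCF is a zinc-finger protein that binds a long, non-palindromic DNA motif and, together with cohesin, anchors chromatin loops, which form preferentially between motifs that point towards each other. Gene 3′ ends are where transcripts are cleaved and polyadenylated, usually downstream of a poly(A) signal, and where RNA polymerase II slows before it terminates. G4s are stacked structures that runs of guanine can form in single-stranded DNA.

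Matches to the CTCF consensus from ChIP-exo were searched on both strands of the central 200 bp of each peak. The same match lay in the window of both lists at 78 sites near 76 genes, of which 51 were on the strand of the gene and 54 lay past the gene end. Of the sites whose peaks ranked highest by fold over IgG, 7 are shown because they mark strong shared peaks with a consensus match. They are written 5′ to 3′ on the strand of the motif, with the 15 matching bases in capitals and 5 flanking bases on each side.
NANOS3: ggcggCCACGAGAGGGCACCacagt
SLC4A3: cggatCCACCAGGTGGCAGTgctgc
ABCC11: agcgaCCAGCAGATGGCAGCctcgt
PBXIP1: gggaaCCACTAGGTGGCACCctggc
SV2B: tatcaACACTAGAGGGCAGTagcta
GZMM: ttctcCCAGGAGGGGGCGGCgttgg
NLRP12: gtcgtCCACTAGATGGCAGTggcac

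In GRCh37 (hg19) the matches lay at chr19:13991024-13991038 (plus strand) in NANOS3, chr2:220507399-220507413 (minus strand) past SLC4A3 and chr16:48198957-48198971 (minus strand) past ABCC11. The others lay at chr1:154916425-154916439 (minus strand) past PBXIP1, chr15:91846243-91846257 (plus strand) past SV2B, chr19:550217-550231 (plus strand) past GZMM and chr19:54296353-54296367 (plus strand) past NLRP12. Of these 7, 5 were on the strand of the gene and 6 lay past its end.

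A G4 motif was defined as 4 stretches of 3 or more G separated by 1 to 7 bases, and it was searched on both strands of the same window. The 5 motifs below lay at peaks found in 1 condition only and are shown because PDS-only and control-only peaks differed in G4 content, with the runs of G in capitals.
CAPN12: GGGGagaGGGGctGGGtGGG
SBK1: GGGtgcctctGGGaatgaGGGGGctGGG
PTMA: GGGttaaGGGGagatgctGGGaaggaGGG
GGTLC2: GGGatcaGGGtggaaaGGGGcaGGG
DLX2: GGGGactcGGGaGGGGGcGGGG

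CAPN12 (chr19:39220542-39220561, minus strand), SBK1 (chr16:28334408-28334435, minus strand) and PTMA (chr2:232579133-232579161, plus strand) had a PDS-only peak. GGTLC2 (chr22:22990545-22990569, minus strand) and DLX2 (chr2:172963959-172963980, plus strand) had a control-only peak. The SBK1 motif lay within the central window but outside the 100 bp peak itself, and the PTMA motif began before its peak (chr2:232579151-232579300). A control peak past PTMA ended at position 232579080, close to the PDS-only peak. A match is a description of the sequence and does not show that the structure formed or that CTCF was bound there. A G4 and a consensus match fell in the same window in 14 of the 973 control peaks and 11 of the 1076 PDS peaks.

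Peaks of the set lay on both sides of the gene end. The rule leaves out peaks in coding sequence, which lies mostly inside the gene, so the shares inside, past the end and in the 3′ UTR are partly set by it and are given as a description. In the control list 556 peaks (57.1%, 54.0–60.2%) and in the PDS list 621 peaks (57.7%, 54.7–60.6%) were centred past the end, and the median offsets were 107 and 130 bp. The fullest 250 bp bin was the one just past the end in both lists, with 172 control and 180 PDS peaks. Of the peaks centred inside the gene, 309 of 417 (74.1%) among control and 331 of 455 (72.7%) among PDS peaks were in a 3′ UTR. That UTR could be of this or of another gene. Of those past the end, 107 (19.2%) and 122 (19.6%) lay in another protein-coding gene. A peak covered a gene end in 268 control (27.5%) and 260 PDS (24.2%) cases.

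Gene ends did not carry a summit of peaks like that at gene starts. Per 1000 gene ends and 250 bp, the control list had 9.02 peak centres within 1 kb, 7.32 from 1 to 5 kb before the end and 9.0 from 1 to 5 kb after it, and the PDS list had 9.86, 7.83 and 9.85. Around gene starts the means within 1 kb were 28.0 for control and 26.8 for PDS peaks, and the fullest bins reached 61.4 and 53.5. At gene ends the fullest bins were 10.9 and 12. These counts include every peak near the position, also those in coding exons or near a start, and the side past the end held more peaks than the side before it also at 1 to 5 kb, with 2879 against 2341 in the control and 3149 against 2505 in the PDS list.

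**Figure D1:**
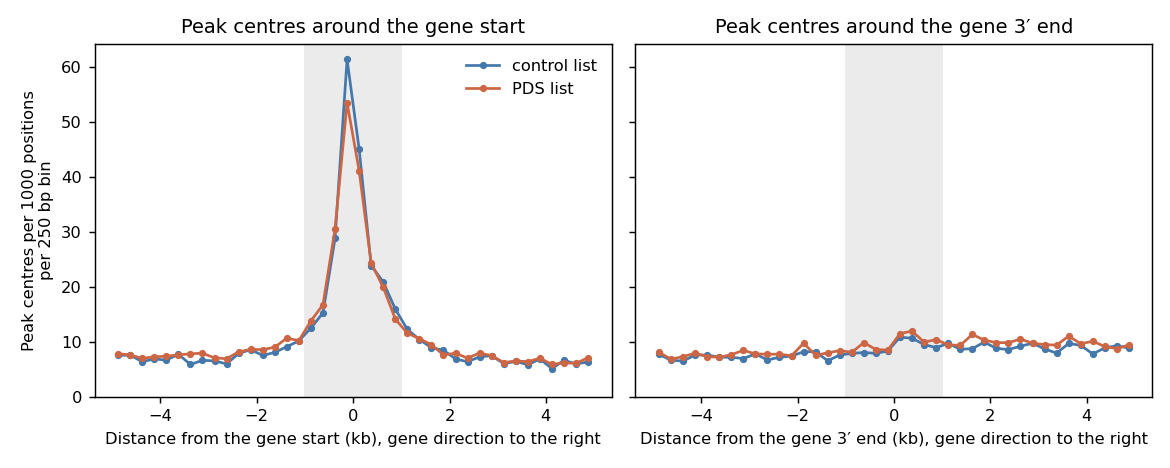
Peak centres per 1000 positions in bins of 250 bp (y axis) against distance in kb from the gene start (left) and the gene 3′ end (right), read in the direction of the gene, for the control list (blue) and the PDS list (orange), with the 1 kb on either side shaded. The starts carry a summit of 61.4 in the control and 53.5 in the PDS list, whereas the ends reach 10.9 and 12.

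By nearest end, the control peaks belonged to 922 genes and the PDS peaks to 957, with 763 in common. Most of these ends held a single peak, namely 872 in control and 847 in PDS-treated cells. In control cells 49 ends held 2 peaks and 1 held 3, and in PDS-treated cells 101 held 2 and 9 held 3. Counting every protein-coding gene with any end within 1 kb of a peak, 5.11% of the 20098 genes were reached in the control list, 5.31% in the PDS list, 4.27% in both and 6.14% in either. Genes with a control peak at the end were shorter, with a median length of 21295.5 bp against 27563.5 bp for the others, and the 2 kb around their end was richer in G and C, at 52.1% against 44.1%. In the PDS list the corresponding lengths were 20031 and 27645 bp and the GC contents 52.8% and 44%. The gap to the next protein-coding gene was 11487 bp at ends with a control peak against 19095 bp at the others (medians), and 10738 against 19110 bp for PDS peaks. The next gene was convergent for 42.5% of genes with a control peak and 43.7% of the rest. The poly(A) signal AATAAA stood in the last 50 bases of 63.0% of genes with a control peak and 58.3% of those without, and of 60.6% and 58.4% in the PDS list. A peak at the promoter of the same gene was present for 24.4% of the 922 control genes against 20.8% of the others, and for 24.7% of the 957 PDS genes against 19.5%.

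Of the 10 strongest shared loci 9 are described, taken from 724 pairs in which 1 control and 1 PDS peak of the set overlapped only each other. Folds are relative to the IgG of each condition, and whether those of control cells rest on the 1 IgG sample given here alone is not known. They are therefore compared as percentiles within a list, where 100 is the highest fold. NANOS3, an RNA-binding protein of germ cells, had a peak of 101.7-fold over IgG in control cells (chr19:13990801-13991400, percentile 99.3) and of 57.0-fold in PDS-treated cells (percentile 99.6). It lay inside the gene but outside exons, and both windows held the consensus match shown above. FGD2, an exchange factor for the GTPase CDC42, had a peak 295 bp past its end at percentiles 99.5 and 97.8. The peak at STIP1, a co-chaperone that links HSP70 and HSP90, reached percentiles 97.1 and 99.4, and that at SLC4A3, an anion exchanger, 96.9 and 99.3. KCNN4, a calcium-activated potassium channel of red cells, had a control peak centred just inside its end, at an offset of -15 bp. The peak past ZNF385C lay in the 3′ UTR of NKIRAS2, whose end faces it, and the other 3 loci were past GNAI2, TNK2 and EPS8L2. Of the 9 loci, those of NANOS3 and KCNN4 were centred inside the gene and the rest past its end.

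**Figure D2:**
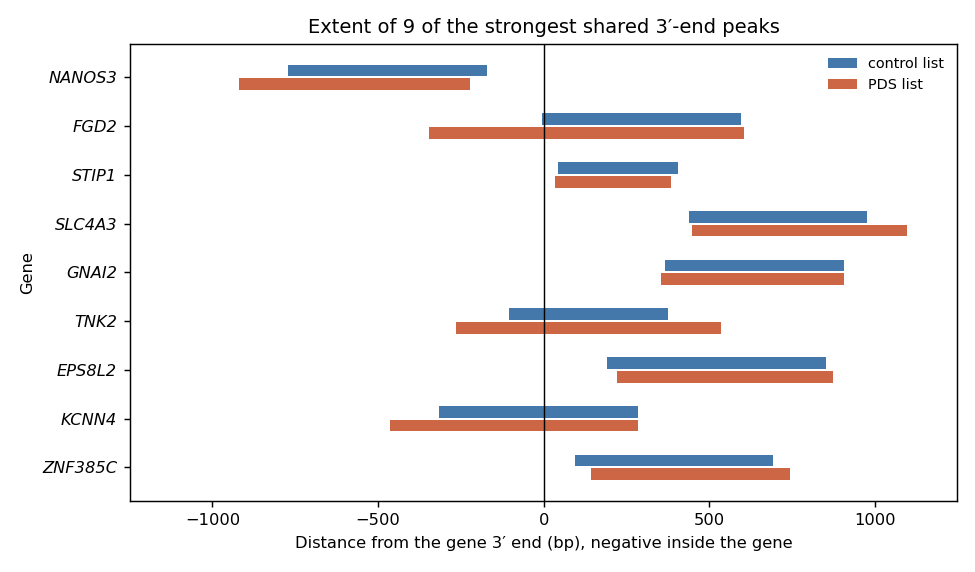
Extent of the control (blue) and PDS (orange) peak at 9 of the 10 strongest shared loci, as distance in bp from the gene 3′ end, negative inside the gene. Both peaks of NANOS3 lie wholly inside the gene, and the control peak of KCNN4 is centred at -15 bp.

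Across the 724 pairs the percentile moved in both directions, with a median shift of 1.41 points from control to PDS and quartiles of -17.3 and 19.0. Only 44 pairs were at or above the 90th percentile in both lists, and the log2 folds correlated with a Pearson's r of 0.46 and a Spearman's rho of 0.46 across loci, which are not independent replicates and share the 2 lists. The PDS peak was the wider in 411 pairs and the control peak in 289. The largest rise was at HPD, an enzyme of tyrosine breakdown, from 14.2-fold (percentile 15.1) to 49-fold (percentile 99.1). PCSK6, a proprotein convertase, EXOSC2, a subunit of the RNA exosome, and COQ10A, a coenzyme Q binding protein, followed with shifts of 79.4, 75.9 and 72.3 points. The largest falls were at MAPK15, a MAP kinase, from percentile 88.8 to 12.5, and at RBPMS2, an RNA-binding protein, from 75.9 to 2.04. FOXL2, a forkhead factor of the ovary, fell by 73.8 points and the adaptor SHF by 73.3. The p-value of the authors' peak calling with PePr moved the other way at each of these loci. It was larger in the PDS list at the rises, as at HPD (8.43e-18 in control, 6.91e-13 in PDS). At the falls it was smaller in the PDS list, as at MAPK15 (8.00e-10 and 1.97e-22). The 2 measures thus do not give the same direction of change. These loci were chosen for their shift in fold percentile, which has no replicate value behind it and was not tested.

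**Figure D3:**
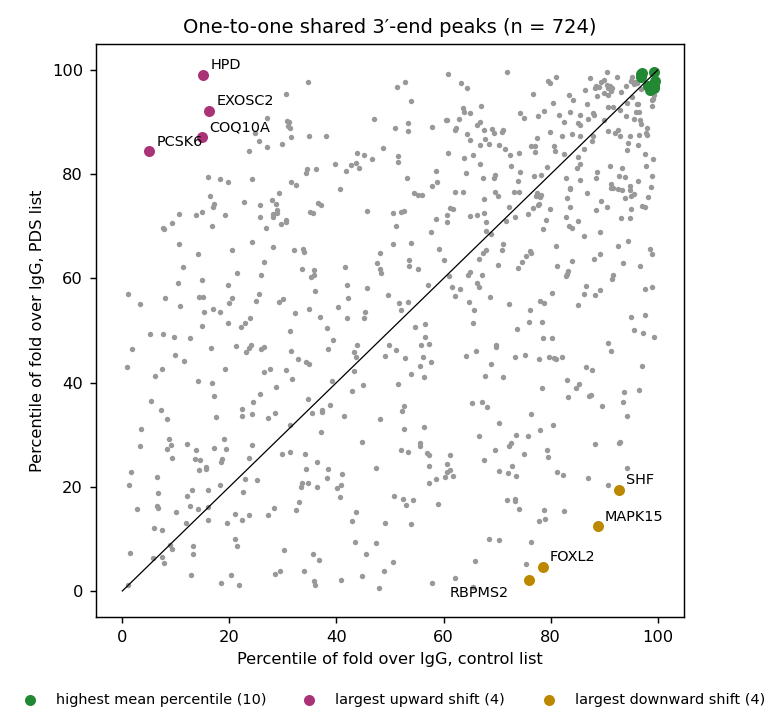
Percentile of fold over IgG in the PDS list (y axis) against that in the control list (x axis) for the 724 pairs of shared peaks (grey), with the 10 strongest loci (green), the 4 largest rises (purple) and the 4 largest falls (gold) and the line of equal percentiles. The points scatter widely around the line, and HPD moves from percentile 15.1 to 99.1.

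Compared with intronic and intergenic peaks, peaks at gene ends of the control list more often had a partner in the PDS list, whereas no difference of the PDS list passed the test. All 12 comparisons were two-sided Fisher's exact tests over peaks with Benjamini-Hochberg adjustment over the 12, and the lists share most of their peaks. In the control list 823 of 973 peaks (84.6%, 82.2–86.7%) were overlapped by a PDS peak, against 75% of 14456 intronic peaks (Fisher's exact test, odds ratio 1.83, adjusted p = 2.18e-11) and 78.8% of 12709 intergenic peaks (odds ratio 1.48, adjusted p = 4.47e-05). In the PDS list 824 of 1076 (76.6%, 74.0–79.0%) were overlapped by a control peak, against 77.5% of intronic peaks, a difference of -0.95 points (-3.66 to 1.59), and 77.0% of intergenic peaks, a difference of -0.46 points (-3.18 to 2.08). Peaks at gene ends were also wider, with medians of 420 bp in the control and 400 bp in the PDS list against 360 and 300 bp in both other classes, and the part of width in the overlap was not tested. Promoter and coding-exon peaks were shared in 83.8% and 83.0% of cases in the control list and 88.1% and 81.0% in the PDS list, where gene ends had the lowest share of the 5 classes, without a test. When sharing was counted by centres at most 100 bp apart, neither difference of the control list passed the test (adjusted p = 0.131 and 0.707, Fisher's exact test), and PDS peaks at gene ends were shared less often than intronic ones (odds ratio 0.83, adjusted p = 0.0104). By overlap within 2 kb of the end the latter also passed (odds ratio 0.88, adjusted p = 0.0389, Fisher's exact test), and the control difference from intergenic peaks did not pass in the more significant 50% of peaks (adjusted p = 0.223).

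G4 motifs were more frequent at gene ends than in intronic and intergenic peaks in both lists, but in the PDS list not among the more significant peaks. They lay in the central window of 107 control peaks (11%, 9.18–13.1%), against 7.69% of intronic peaks (Fisher's exact test, odds ratio 1.48, adjusted p = 0.00107) and 6.71% of intergenic peaks (odds ratio 1.72, adjusted p = 1.42e-05). By the same Fisher's exact test, they lay in 119 peaks of the PDS list (11.1%, 9.32–13.1%), against 8.65% (odds ratio 1.31, adjusted p = 0.0174) and 7.46% (odds ratio 1.54, adjusted p = 0.000153). Promoter peaks held a G4 motif in 24.6% and 23.3% of cases and coding-exon peaks in 13.4% and 11.5%, without a test. The median GC content followed the order of these shares in both lists. It was 54.5% and 55.5% for gene ends, 50.5% and 52.5% for intronic and 50.0% and 51.5% for intergenic peaks. Coding-exon peaks had 61% and 60.5%, and promoter peaks 67.0% and 65.0%. Coding-exon peaks of the PDS list were thus richer in G and C than gene ends at nearly the same G4 share, 11.5% against 11.1%. Within windows of 50 to 60% GC the differences of gene ends from intronic and intergenic peaks were still past the threshold. The shares were 10.3% of control peaks against 6.47% and 6.31% (adjusted p = 0.0201 and 0.0175, Fisher's exact test). For PDS peaks they were 9.55% against 6.83% and 6.37% (adjusted p = 0.0490 and 0.0220, Fisher's exact test). In the more significant 50% of PDS peaks the odds ratios were 1.04 and 1.17 (adjusted p = 0.855 and 0.501, Fisher's exact test). Within 500 bp of the end the PDS difference from intronic peaks did not pass (adjusted p = 0.0830, Fisher's exact test). Its odds ratio was 1.33 there, against 1.31 within 1 kb.

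The share of peaks with the CTCF consensus did not differ past the threshold between gene ends and intronic or intergenic peaks. It was matched in 134 control peaks (13.8%, 11.7–16.1%), a difference of -0.15 points (-2.25 to 2.23) from intronic and -1.89 points (-4.01 to 0.50) from intergenic peaks. In the PDS list 110 peaks (10.2%, 8.55–12.2%) held it, which differed by 0.35 points (-1.40 to 2.36) and -0.92 points (-2.68 to 1.11). Without a test, promoter peaks held it in 5.18% (4.53–5.91%) of control and 4.76% (4.13–5.48%) of PDS cases, and coding-exon peaks in 11.3% and 8.95%. The fixed letters of the consensus alone matched 28.3% of control and 21.3% of PDS peaks. A match on the strand of the gene was found in 80 of 134 control peaks (59.7%, 51.2–67.6%) and 60 of 110 PDS peaks (54.5%, 45.2–63.5%). Past the end the share was 65.1% and inside the gene 51.0% in the control list (two-sided Fisher's exact test, p = 0.146), and the shares did not differ past the threshold in the PDS list either (p = 0.417).

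**Figure D4:**
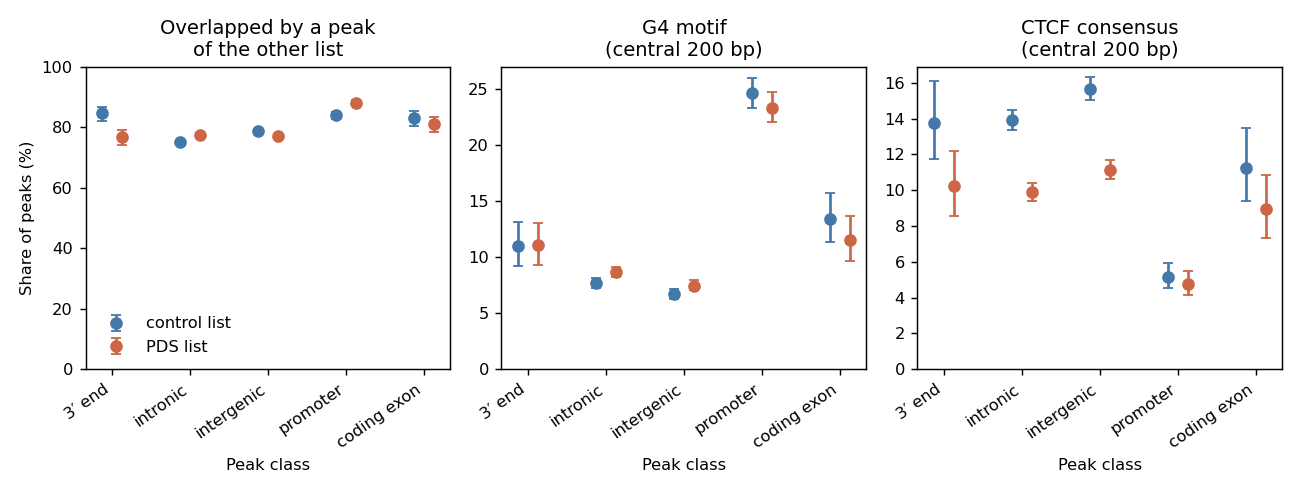
Share of peaks in percent (y axis, a scale of its own in each panel) that overlap a peak of the other list (left), hold a G4 motif (middle) or a CTCF consensus match (right) in the central 200 bp, by peak class, for the control (blue) and PDS (orange) lists with Wilson 95% intervals. Gene ends hold G4 motifs in 11% and 11.1% of peaks, between the intronic and the promoter peaks.

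Peaks without a partner made up 252 of the 1076 PDS peaks at gene ends, 23.4%, and 21.4% of all PDS peaks had none. In the control list they were 150 of 973, 15.4%, whereas 22.0% of all control peaks had none. Gene ends thus held 3.59% (3.18–4.05%) of the PDS-only set genome-wide, against 2.06% (1.76–2.42%) of the control-only set. PDS-only peaks held a G4 motif more often than control-only peaks, in 25 of 252 (9.92%, 6.81–14.2%) against 4 of 150 (2.67%, 1.04–6.66%, two-sided Fisher's exact test, odds ratio 4.02, p = 0.00528). Shared peaks at gene ends held one in 94 of 824 PDS (11.4%) and 103 of 823 control cases (12.5%), without a test. The share of PDS-only peaks was thus not above that of shared peaks, and that of control-only peaks was low. The windows of PDS-only peaks were also richer in G and C than those of control-only peaks, with medians of 54.5% and 43.25%. Among all PDS-only and control-only peaks the medians were 51.5% and 41.5%. Among peaks of at least 50% GC, the motif was held by 24 of 191 (12.6%) PDS-only peaks, compared with 4 of 50 (8.00%) in the control-only set, a difference that did not pass the test (odds ratio 1.65, p = 0.464, Fisher's exact test). The difference did not pass it either when a peak of the other list had to be more than 1 kb away (odds ratio 2.65, p = 0.200, Fisher's exact test), or when peaks beside a shared peak of the same list were left out (8 of 98 against 3 of 115, odds ratio 3.32, p = 0.117).

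Peaks without a partner were narrow and of low fold in both lists, at gene ends as among all peaks. Their median width was 100 bp in the PDS and 180 bp in the control list, against 550 and 480 bp for shared peaks. The smallest width at gene ends was 100 bp in the PDS and 120 bp in the control list, so the PDS-only median lay at that floor. Positions were multiples of 50 and 60 bp, so widths of the 2 lists are on unlike grids. The median percentile of fold of peaks without a partner was 23.3 and 34.0 against 60.7 and 60.6. The consensus was matched in 4 PDS-only (1.59%) and 15 control-only peaks (10.0%), against 12.9% and 14.5% of shared peaks. A shared peak of the same list lay less than 1 kb away for 154 PDS-only peaks (61.1%, 55.0–66.9%) and for 35 control-only peaks (23.3%, 17.3–30.7%). Among all PDS-only and control-only peaks these shares were 50.8% and 13.6%, the median widths 100 and 180 bp, the median percentiles of fold 27.7 and 31.6, the consensus shares 2.38% and 10.3% and the G4 shares 7.0% and 5.61%.

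**Figure D5:**
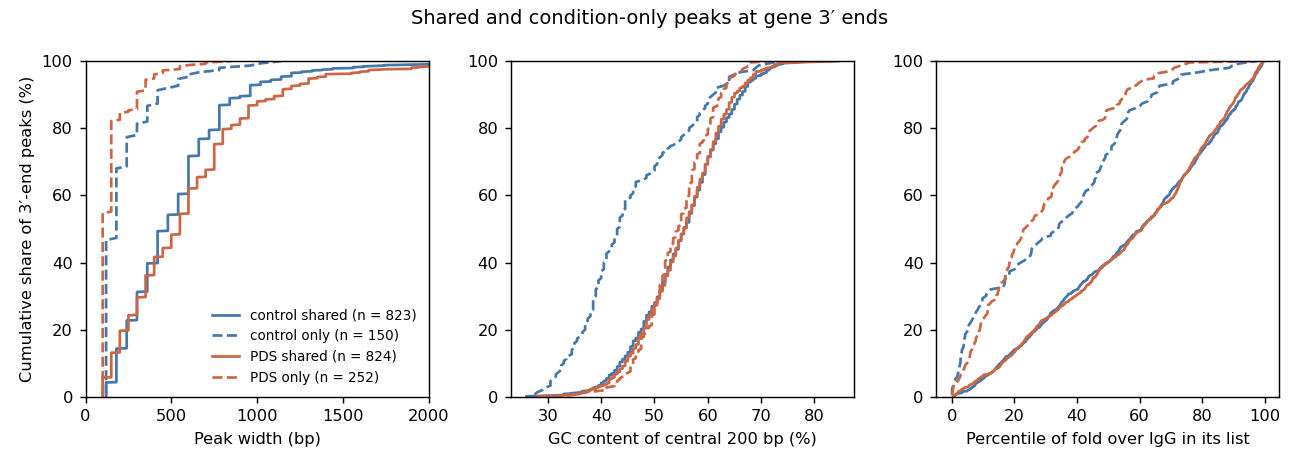
Cumulative share of peaks at gene 3′ ends in percent (y axis) against peak width in bp (left, shown to 2000 bp), GC content of the central 200 bp in percent (middle) and percentile of fold over IgG within the list (right), for shared (solid) and condition-only (dashed) peaks of the control (blue) and PDS (orange) lists. The control-only peaks stand apart in GC content, with a median of 43.25%, and both condition-only sets are narrow and low in fold.

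The PDS-only peak of highest fold lay past CAPN12, a calpain protease, within ACTN4 (chr19:39220451-39220650). It reached 36.3-fold over IgG (percentile 95.8) and held both the G4 motif shown above and a consensus match. The next were in the 3′ UTRs of SBK1, a kinase, at 22.7-fold and INSRR, a receptor of the insulin receptor family, at 22.3-fold, each with a shared peak less than 1 kb away. The control-only peak of highest fold was in an exon of GPAT2, a glycerol-3-phosphate acyltransferase, at 76.8-fold. Next came peaks in the 3′ UTRs of TSPYL1, at 56.6-fold, and P4HA2, a prolyl hydroxylase of collagen, at 52.0-fold. None of these 3 held a G4 motif or a consensus match in its window.

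Some gene ends held several peaks. DUSP3, a dual-specificity phosphatase, had 3 in the control list at offsets of -597, 273 and 753 bp, of which the first was the strongest at 28.8-fold. ACVRL1, a receptor of the TGF-beta family, and C17orf107 were taken in alphabetical order from the 49 control ends tied at 2 peaks. ACVRL1 had shared peaks of 24.1-fold and 32.1-fold, and C17orf107 a control-only peak of 24.1-fold and a shared peak of 52.6-fold. In the PDS list CHRM1, a muscarinic acetylcholine receptor, DUSP15 and GPA33, a surface antigen of the intestine, had 3 each, as had the rest of 9 PDS ends. At CHRM1 the peak shared with control cells, in the 3′ UTR, was at 17.0-fold, and the PDS-only peaks past the end were at 10.0-fold and 11.6-fold. GPA33 had a shared peak of 22.9-fold and PDS-only peaks of 7.24-fold and 10.7-fold.

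Genes with a peak at the end were also counted in gene lists relevant to K562 cells and to gene ends. These lists are short, and their counts were not tested. Of 21 cleavage and polyadenylation factors, PAPOLA, the poly(A) polymerase, had a peak in both lists, past its end at percentiles 41.4 and 33.6. None of 18 genes had one in a list of CTCF, cohesin and the further factors MAZ, ZNF143 and YY1. Of 20 erythroid transcription factor genes, IKZF1, LMO2 and STAT5A had a peak in both lists. LMO2, a bridging factor of the erythroid complex, held a consensus match in both windows and reached percentiles 71.0 and 88.5, STAT5A reached 88.8 and 80.4, and IKZF1, in its 3′ UTR, 57.2 and 20.7. Of 20 genes of haem synthesis and iron, UROD, a decarboxylase of the pathway, had a peak in the control list only. A PDS peak overlapped it, but its centre did not meet the rule for the end of UROD. Of 17 G4 helicase genes, RECQL5 had a control peak, at percentile 48.1, and RECQL4 a PDS peak, at percentile 5.83. The RECQL4 peak had no control partner and lay nearer the end of MFSD3, in an exon of that gene. A PDS peak overlapped the RECQL5 peak without meeting the rule for that end. For comparison, 6.14% of all protein-coding genes had such a peak in either list.

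At the limit of 1 kb, the last control peak inside it lay 1000 bp past HTD2 (18.4-fold) and the first outside it 1005 bp past THNSL2 (25.5-fold). In the PDS list the last inside had an offset of -998 bp from the end of RAB4B-EGLN2 (13.7-fold) and the first outside it had an offset of -1001 bp from that of ADAM15 (21.1-fold).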

How the data were processed

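CTCF occupancy was measured by ChIP-seq in control K562 cells (2 CTCF samples, 1 IgG sample) and after 10 μM PDS for 24 h (2 CTCF samples, 2 IgG samples). Reads were aligned to hg19 by the authors, who called peaks with PePr on both replicates of a condition over IgG, and the submitters' processing notes name Bowtie2 2.2.3, SAMtools and deepTools 2.0. The deposited score of each peak and its adjusted p-value were not used. The fold over IgG is a ratio computed by the authors and was ranked within a list only. The p-value computed by the authors served to take the more significant 50% of each list. Positions were multiples of 60 bp in the control and 50 bp in the PDS list.

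Genes, starts, ends and coding sequence were taken from GENCODE release 44 mapped to GRCh37, whose sequence also gave the motifs. Gene ends were the ends of gene records. An overlap of 1 bp or more made a peak shared. Shares were given Wilson 95% intervals, differences Newcombe intervals and comparisons two-sided Fisher's exact tests with a threshold of 0.05, which treat peaks as independent. Listed genes were matched by symbol, and 17 of 19 G4 helicase names were in the annotation because the others are aliases of listed genes.

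The members and lists were chosen with earlier results of these data known. The genes named are the 10 strongest shared pairs by mean percentile, the 3 peaks of highest fold found in each list only and the 4 largest rises and falls in percentile. Also named are 3 of the ends with most peaks per list, ties taken in alphabetical order, the peaks at the distance limit and listed genes with a peak. Of the strongest shared pairs, 1 is not reported here. The printed sequences are the strongest by fold, a choice made after the values were seen. Alternatives covered distance, stringency, overlap and motif, and those by GC content, merging and neighbouring shared peaks were added after seeing the data. The overlap, classification and tests were tested on simulated data. The tools were samtools 1.23.1 and Python 3.11.15 with the packages scipy 1.17.1, pandas 2.3.3, pyfaidx 0.9.0.4, numpy 2.4.6 and matplotlib 3.10.9.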

Additional observations from a re-analysis of the deposited data

How the results depend on the processing

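Of 73 alternatives to a test, 53 kept direction and side of the threshold, and of 24 for numbers and shares without a test, 12 stayed close to the reported value. The number of peaks at gene ends followed the rule by construction. It was 534 in the control and 569 in the PDS list within 500 bp, 1776 and 1966 within 2 kb, and 565 and 579 in the more significant 50% of each list, at 530 and 541, 1617 and 1613, and 561 and 577 genes. For sharing, centres at most 100 bp apart gave odds ratios by Fisher's exact test of 1.13 (control, intronic), 1.04 (control, intergenic) and 0.83 (PDS, intronic, adjusted p = 0.0104), and a distance of 2 kb gave 0.88 (PDS, intronic, adjusted p = 0.0389). In the more significant 50% of peaks the intergenic comparison gave by Fisher's exact test 1.5 in the control (adjusted p = 0.223) and 1.08 in the PDS list. For G4 motifs by Fisher's exact test, the PDS list lost its calls in the more significant 50% of peaks, at 1.04 against intronic and 1.17 against intergenic peaks, and within 500 bp against intronic peaks, at 1.33 (adjusted p = 0.0830). For the consensus, control against intronic peaks turned to 1.12 over the whole peak, 1.07 with the fixed letters, 1.03 in the more significant 50%, 1.03 within 500 bp and 1.01 within 2 kb. PDS against intergenic peaks turned to 1.02 over the whole peak and 1.07 in the more significant 50%, and against intronic peaks to 0.98 within 2 kb, none past the threshold. The PDS-only against control-only G4 odds ratio was 2.65 when the other list had to lack a peak for 1 kb around, 1.65 at 50% GC or more and 3.32 away from shared peaks of the same list (p = 0.117, Fisher's exact test). Apart from the numbers of peaks and genes, the cause was not tested.

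No paired analysis was possible because neither list separates its replicates, and for the same reason no replicate was left out. The lists hold no depth, so the limit it set on weak peaks is unknown.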

Other observations

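The number of peaks at gene ends per 100 protein-coding genes differed between chromosomes. Chromosome 22 had 8.00 in the control and 10.0 in the PDS list, chromosome 17 had 7.65 and 7.49, and chromosome 19 had 7.16 and 7.97. Chromosome 1 had 6.17 and 7.65 and chromosome 9 had 5.38 and 7.76. As a share of the peaks on the chromosome the order was another. Chromosome 19 had 6.26% and 6.36%, chromosome 22 had 3.63% and 4.27% and chromosome X had 1.98% and 2.44%. Per 100 genes, chromosome 4 had 0.92 and 1.18 and chromosome X 1.73 and 1.96.

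By family, the counts can be read beside the 6.14% of all protein-coding genes that had a peak at the end in either list. Of 515 genes with ZNF symbols, 21 had a peak at the end in either list, with 18 in each. Of 84 ribosomal protein genes 6 had one, namely RPL22, RPL38, RPL4, RPL7A, RPS19 and RPS25, and of 69 histone genes 3, namely H1-10, H2BC13 and H2BC26. The peak at the common end of the gamma protocadherin genes, which share their last exons, lay at percentile 88.3 of the control and 28.3 of the PDS list and counted for 22 genes at once.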
